A study of Mus musculus with 24 samples.

Results

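Exonic CpGs away from promoters were the CpGs of the RRBS table that lay on an autosome, inside an exon of any GENCODE M21 transcript (mm10), and more than 1000 bp from every transcript start. The rule uses position and no methylation value. There were 46531 such cytosines among the 694379 of the table, or 6.7% of them. They lay in 10163 exons of 7435 genes, and 41980 belonged to protein-coding genes. Their median distance to the nearest start was 4110 bp. RRBS (reduced representation bisulfite sequencing) sequences short CpG-dense DNA pieces after bisulfite treatment, in which methylated cytosines stay as they are and the others end up as thymine. Dentate gyrus DNA was taken from female C57BL/6JRj mice in 3 groups of 8, namely young STD (3 months old), aged STD (17 months old) and aged ENR (17 months old). STD is standard housing, and the ENR mice had spent their last 3 months in an enriched enclosure that they shared, so that an effect of the enclosure and an effect of its cage mates cannot be told apart. The tissue holds neurons, glia and vessels, and a change in the share of cell types and a change of methylation within a cell type cannot be told apart in these values.

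DNA methylation in vertebrates is the default state of CpGs outside regulatory sequence, and the bodies of active genes are methylated while CpG-dense promoters stay free of it. DNMT1 copies the mark after replication, DNMT3A and DNMT3B set it anew, and TET enzymes oxidise it. A methylated cytosine is prone to deaminate to thymine, so that CpGs are rare in methylated sequence. Coding exons are an exception, because CpGs are kept there by the codons for arginine and other amino acids.

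The coding sequences below show the range of levels, from CpG-dense stretches nearly free of methylation (Alkbh5 and Pcdh10, with 14 CpGs each in the window) to stretches with nearly complete methylation, of which Fam50b was of similar density (13 CpGs) and Peg10 and Ttn were less dense (7 CpGs each). Each is the 120-base window of a coding exon that held the most counted CpGs of its gene. The sequences are read from GRCm38 in the direction of the gene, and capitals mark the measured CpGs that were counted. Cytosines at the ends of a window were not counted, even where measured. The CpG that opens the Pcdh10 and Peg10 windows is therefore in small letters, although it was measured, and is left out of their means. Alkbh5 (encoding an RNA demethylase; chr11:60538983-60539102, plus strand) had a mean level of 0.65% over the 14 CpGs of its window, and Pcdh10 (encoding a cell adhesion protein; chr3:45381040-45381159, plus strand) had 0.0962% over 12. In Fam50b (chr13:34747303-34747422, plus strand) the 13 CpGs of the window were at 96.9%, at a GC content of 60.8% against 61.7% in Alkbh5. Peg10 (a paternally expressed gene derived from a retrotransposon; chr6:4755338-4755457, plus strand) had 97.6% over 6 CpGs, and Ttn (encoding the giant muscle protein titin; chr2:76944904-76945023, minus strand) had 97% over 7.
Alkbh5: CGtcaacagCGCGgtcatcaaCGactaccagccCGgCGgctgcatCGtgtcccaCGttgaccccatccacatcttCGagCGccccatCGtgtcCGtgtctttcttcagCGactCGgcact
Pcdh10: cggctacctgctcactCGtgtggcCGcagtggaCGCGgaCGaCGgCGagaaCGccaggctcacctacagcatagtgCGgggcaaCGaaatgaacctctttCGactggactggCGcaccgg
Fam50b: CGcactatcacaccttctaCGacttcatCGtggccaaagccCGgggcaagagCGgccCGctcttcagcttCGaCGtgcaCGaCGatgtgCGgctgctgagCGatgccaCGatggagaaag
Peg10: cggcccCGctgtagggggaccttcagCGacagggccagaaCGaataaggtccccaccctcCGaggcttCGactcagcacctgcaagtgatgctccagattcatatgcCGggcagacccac
Ttn: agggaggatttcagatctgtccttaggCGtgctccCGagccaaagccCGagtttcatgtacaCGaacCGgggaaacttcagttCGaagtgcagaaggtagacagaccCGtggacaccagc

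The mean level over all exonic CpGs was 56.5 ± 1.04% (SD, n = 24 mice). It was taken from the levels of the CpGs (the mean of the 3 group means) and from the deviations of each mouse from them. Few CpGs lay near this mean. Of the exonic CpGs, 25.2% had a level under 10%, 34.6% had a level over 90%, and 40.3% lay between. The median was 74%. CpG-rich windows were defined as 150 bases on each side of a CpG with a GC share over 0.5 and a CpG observed-over-expected ratio over 0.6, and they held 14206 exonic CpGs with a mean of 28.7 ± 0.577% (SD, n = 24). The 32325 exonic CpGs outside such windows had a mean of 68.7 ± 1.35% (SD, n = 24). The number of covered exonic CpGs per mouse ranged from 18858 to 39582, and the median CpG had a value in 14 mice. Of the exonic values, 80.6% were exactly 0 or 100%, against 84.1% over all autosomal CpGs. The read number behind each value is unknown beyond the minimum of 10, so no interval is given for single values.

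**Figure D1:**
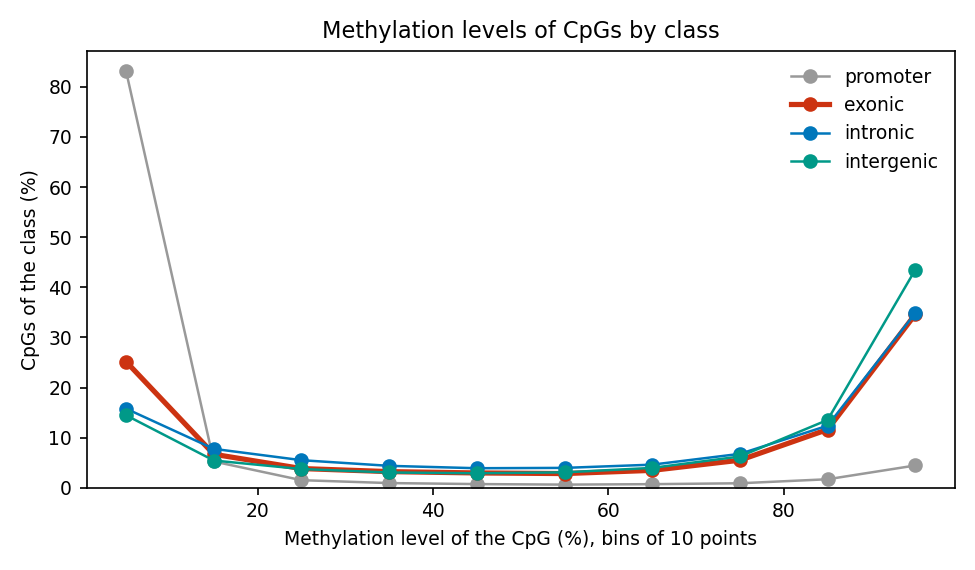
Share of the CpGs of each class (y axis, %) by methylation level (x axis, %, bins of 10 points, the mean of the 3 group means). Exonic CpGs (thick line) have a peak at each end, with 25.2% under 10% and 34.6% over 90%, while 83.1% of promoter CpGs lie under 10%.

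Neighbouring exonic CpGs were alike. In the 3047 exons with at least 5 measured CpGs, the SD of the CpG levels within an exon had a median of 7.03 points. The mean level was under 10% in 641 of these exons and over 90% in 1062, and only 62 held both a CpG under 10% and a CpG over 90%. Both strands of a CpG were measured at 3669 sites, where the strands lay within 10 points of each other at 2991 (81.5%) and over 50 points apart at 12. CpGs of a site or an exon were therefore not treated as replicates. At the 1000 bp limit the levels did not step, with 28.3% over the 1804 exonic CpGs in the first 100 bp beyond the limit and 29% over the 2084 CpGs of exons in the last 100 bp before it, which belong to the promoter class.

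Aged STD replicate 5 stood apart before any groups were compared. Its exonic level was 51%, whereas the other 23 mice lay between 54.9 and 60.6%, over the 382 exonic CpGs measured in every mouse. Tests over mice used these CpGs unless another set is named, and results that rest on this mouse are given with and without it. No batch is given in the labels.

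To place exons among the other classes, levels were compared within each mouse over CpGs measured in every mouse (two-sided sign-flip permutation test over 24 mice, 7 class comparisons adjusted together by Benjamini-Hochberg). Such a test treats the CpGs as fixed and the mice as replicates. Exonic CpGs had a level of 56.5 ± 1.72% (SD, n = 24), and the 3197 promoter CpGs had 13.8 ± 0.443% (SD, n = 24), a difference of 42.7 points. The 1917 intronic CpGs were at 60.9 ± 1.53% and the 2740 intergenic CpGs at 68.4 ± 1.13% (SD, n = 24 each). The exonic minus intronic difference was −4.38 ± 1.23 points and the exonic minus intergenic difference −11.8 ± 1.09 points (SD, n = 24), with exonic CpGs lower in 24 of 24 mice both times. These permutation tests each gave p = 1e-05, the smallest value possible with 100000 resamples, and an adjusted p of 1.17e-05.

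The order of exons and introns depended on which CpGs were set against each other. RRBS covered CpG-rich windows in 30.5% of the exonic and 8.67% of the intronic CpGs. Outside CpG-rich windows, over all CpGs, the exonic level was above the intronic level in each of the 6 distance bins. Over the CpGs measured in every mouse it was below, with 59.8 ± 1.99% over 323 exonic and 62 ± 1.57% over 1742 intronic CpGs outside such windows, a difference of −2.26 ± 1.4 points (SD, n = 24), lower in 23 of 24 mice (permutation p = 2e-05). By distance over all CpGs, the exonic level was 56.9 ± 1.32% against 47.9 ± 1.47% at 1 to 2 kb, and 77.8 ± 1.51% against 67.3 ± 1.79% at 10 to 20 kb (SD, n = 24). Within CpG-rich windows the exonic level was 13 ± 0.443% against 5.97 ± 0.278% at 1 to 2 kb, and beyond 50 kb it was the lower one, with 63.4 ± 2.68% over 239 exonic and 79.5 ± 1.22% over 707 intronic CpGs (SD, n = 24). With CpGs that had a value in at least 20 mice and equal weight for each of the 12 bins of distance and density, exonic CpGs were 0.863 ± 1.18 points above intronic CpGs (SD, n = 24), higher in 19 mice (permutation p = 0.00199), the opposite direction of the pooled comparison. The bins ranged widely, and the CpG-rich ones went from 24.9 points at 5 to 10 kb to −58.5 points beyond 50 kb, where only 25 exonic CpGs were measured. Without that bin the mean was 6.26 ± 1.09 points (SD, n = 24), higher in 24 mice (permutation p = 1e-05). Over the 6 bins outside CpG-rich windows the difference was 5.21 ± 0.896 points (SD, n = 24; permutation p = 1e-05), but in the bins at 2 to 5 kb and beyond 50 kb the exonic minus intronic difference was −0.584 and −4.11 points. These binned values were added after the data had been seen.

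**Figure D2:**
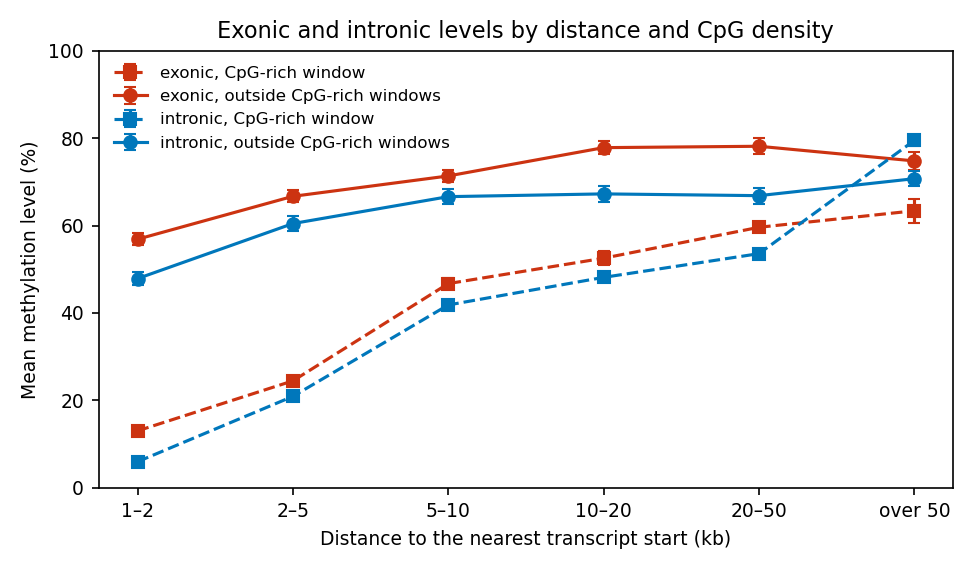
Mean methylation level (y axis, %) of exonic and intronic CpGs by distance to the nearest transcript start (x axis, kb), inside and outside CpG-rich windows, with the SD over 24 mice as error bars. All 4 lines rise with distance up to 20 kb, and exonic CpGs outside CpG-rich windows go from 56.9 to 77.8%.

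Position within the transcript went with large differences in level. CpGs in first exons, which lay over 1000 bp behind every start, had 19.5 ± 0.894%, and those in single-exon genes had 19.8 ± 0.791% (SD, n = 24). In internal exons the level was 68.3 ± 1.06% over 19005 CpGs, and in last exons it was 51.7 ± 1.1% over 15451 (SD, n = 24). Part of the CpGs lay in CpG-rich windows, where first exons had 9.62% and internal exons 42.3%. Outside CpG-rich windows the levels were 46.9% in first, 39.6% in single, 76.4% in internal and 66.6% in last exons. Coding CpGs were at 58.8 ± 0.92% (n = 31678 CpGs), 3′ untranslated CpGs at 52.9 ± 1.45% (7434) and 5′ untranslated CpGs at 26.3 ± 1.19% (551; SD over 24 mice each). Pseudogene exons had the highest level, 86.4 ± 2.26% over 452 CpGs, and exons of long non-coding or unclassified genes had 45.4 ± 1.35% over 4068 (SD, n = 24). Over CpGs measured in all mice, coding CpGs were 17.9 ± 1.8 points above untranslated CpGs (SD, n = 24; 167 and 99 CpGs), higher in 24 of 24 mice (permutation p = 1e-05, adjusted p = 1.17e-05).

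At exon edges the small set of shared CpGs gave a direction that a larger set did not hold. Within 100 bp of an edge with CpGs on both sides, 16 exonic CpGs were 7.26 ± 8.47 points above 15 intronic CpGs over 11 edges (SD, n = 24; permutation p = 0.00049, adjusted p = 0.00049), higher in 20 mice. With CpGs measured in at least 20 mice, 360 exonic CpGs were at 50.1% and 274 intronic CpGs at 57.2% over 179 edges, a difference of −7.08 ± 1.96 points (SD, n = 24; permutation p = 1e-05). Over all 2358 edges with both kinds, the levels were 62.5 ± 1.03% inside and 63.1 ± 1.11% outside the exon (SD, n = 24).

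Arginine codons of the form CGN carry a CpG in their first positions, other amino acids (serine, proline, threonine and alanine) have codons of the form NCG, and the remaining CpGs span the junction of adjoining codons. Arginine CpGs had the highest level, 64.6 ± 1.1% over 11234, against 54.7 ± 0.922% over 8332 NCG CpGs and 56.2 ± 0.792% over 11570 junction CpGs (SD, n = 24). Among the NCG codons, alanine CpGs were at 45.2 ± 0.982% and threonine CpGs at 59.3 ± 1.3% (SD, n = 24). CpG-rich windows held 54.9% of the alanine and 35.4% of the threonine CpGs. Over all CpGs outside CpG-rich windows the levels were 76% for arginine, 73.4% for NCG and 73.6% for junction CpGs. Inside them arginine CpGs were at 37.6%, NCG at 25.8% and junction CpGs at 30.1%. Over the CpGs measured in all mice, 63 arginine CpGs were 21.2 ± 2.31 points above 50 junction CpGs (SD, n = 24), higher in 24 mice (permutation p = 1e-05, adjusted p = 1.17e-05). Outside CpG-rich windows 54 of these arginine CpGs were at 78.5% and 30 junction CpGs at 60%, a difference of 18.5 ± 3.28 points (SD, n = 24), higher in 24 mice (permutation p = 1e-05). The size differed with the CpGs used, and with 891 and 939 CpGs measured in at least 20 mice the difference was 5.19 ± 1.57 points (SD, n = 24; permutation p = 1e-05).

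Constitutive exons, present in every transcript of the gene, and alternative exons did not have a stable order. The 47 constitutive coding CpGs shared by all mice were 7.17 ± 2.74 points above the 87 alternative ones (SD, n = 24; permutation p = 1e-05, adjusted p = 1.17e-05). Outside CpG-rich windows they were lower, by a difference of −3.17 ± 3.64 points (SD, n = 24; permutation p = 0.00019, adjusted p = 0.000222), and with CpGs of at least 20 mice the difference was 0.731 ± 1.39 points (SD, n = 24; permutation p = 0.0173). Over all CpGs the levels were 60.3 ± 1.07% for 9229 constitutive and 66.7 ± 1.04% for 12178 alternative CpGs (SD, n = 24).

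The exonic CpGs were spread unevenly over genes. Ttn alone held 209, and its exons were methylated throughout, with a mean of 94.8%, 171 CpGs over 90% and none under 10%. The other 7 of the 8 genes with the most exonic CpGs had low levels. Sp8 (a zinc finger transcription factor) had 3.33% over 124 CpGs, Foxc1 (a forkhead factor) 11.8% over 86, Evx2 (a homeobox gene) 3.53% over 78, Kcns1 (a potassium channel subunit) 6.24% over 77, Nhlh2 (a basic helix-loop-helix factor) 3.66% over 76, Isl2 (a LIM homeobox gene) 4% over 75, and Fzd8 (a Wnt receptor) 3.02% over 74. At least 75.6% of the CpGs of each of these 7 genes lay in CpG-rich windows, against 5.26% in Ttn. Of the 383 genes with at least 20 exonic CpGs, 177 had a mean under 10%, 54 had a mean over 90%, and 152 lay between.

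The lowest means among these genes were those of Gm48356, an unclassified transcript, with 0.157% over 22 CpGs, and of Alkbh5, Bbc3 (a promoter of apoptosis), Grrp1, 2310034G01Rik, Bhlhe22 (a neuronal basic helix-loop-helix factor), Tchh and Pcdh10, with 0.711 to 0.996%. All CpGs of these 8 genes lay in CpG-rich windows. Tchh, which encodes a protein of the hair follicle, had 66 CpGs, and each of them was under 10%. The highest means were those of Peg10 (98.6% over 26 CpGs), Fam50b (98.4% over 44), Setbp1 (98.3% over 32) and Arid5b (98.1% over 26). CpG density did not set these genes apart from the lowest ones in every case, since 90.9% of the Fam50b CpGs and 69.2% of the Arid5b CpGs lay in CpG-rich windows. The spread between mice differed among these genes. Arid5b had 96.3 ± 5.48% in young STD mice (SD, n = 8), the lowest at 84.9%, and Bhlhe22 had 1.58 ± 3.14% in aged STD mice (SD, n = 8), the highest at 8.29%. In the order young STD, aged STD, aged ENR, Peg10 had 98.8 ± 1.67% (SD, n = 8), 98.5 ± 1.91% (SD, n = 8) and 98 ± 2.51% (SD, n = 8). Fam50b had 99.1 ± 1.12% (SD, n = 8), 99.1 ± 0.955% (SD, n = 8) and 96.1 ± 3.9% (SD, n = 8), with the lowest aged ENR mouse at 89.4%.

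Gene lists defined by name ranged from nearly free of methylation to mostly methylated. Developmental transcription factors had a mean level of 11.4% over 1904 CpGs of 144 genes, with 75.3% of the CpGs under 10% against 25.2% over all exonic CpGs. The prefixes of this list also took in overlapping RNA genes such as Sox2ot and the receptor gene Tbxa2r. Among its members with the most CpGs, Foxc1 had 11.8% over 86 CpGs, Tbx2 (a T-box factor) 8.8% over 73 CpGs and Nkx1-1 (a homeobox gene) 3.16% over 52 CpGs. Glutamate and GABA receptor genes had 27.9% over 207 CpGs of 17 genes, with 3.41% over 50 CpGs in Grin2c, 2.08% over 38 CpGs in Gria2 and 10.2% over 15 CpGs in Grin1, which all encode glutamate receptor subunits. Activity-induced genes had 27.4% over 163 CpGs of 14 genes, with Fosb at 6.08% over 29 CpGs and the nuclear receptor genes Nr4a2 and Nr4a1 at 65.7% over 19 CpGs and 86.9% over 18 CpGs.

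The collagens had the highest level of the 12 lists, with 79.3% over 386 CpGs of 39 genes and 51.6% of the CpGs over 90%, and Col6a2 at 96.5% over 26 CpGs, Col8a1 at 92.3% over 28 CpGs and Col11a2 at 76.2% over 31 CpGs. The Zfp zinc finger genes had 69% over 1168 CpGs of 136 genes, of which 50.1% were over 90% and 16.9% under 10%. Their 3 members with the most exonic CpGs were on the low side, with 1.26% over 58 CpGs in Zfp771, 6.08% over 60 CpGs in Zfp697 and 14.1% over 47 CpGs in Zfp503. Clustered protocadherins, adhesion genes of which each neuron expresses its own combination, were at 64.3% over 286 CpGs of 32 genes with only 5.59% under 10% and 17.1% over 90%. Pcdhb2 was at 78.5%, Pcdha1 at 61.7% and Pcdhgb6 at 56.2%.

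Synaptic and cell type lists ranged from 44 to 70.1%. Voltage-gated ion channel genes had 46.6% over 364 CpGs of 40 genes, with the potassium channel gene Kcna1 at 2.87% over 42 CpGs and the calcium channel genes Cacna1a and Cacna1c at 16.2% and 27.5%. Synaptic scaffold and adhesion genes had 44% over 360 CpGs of 25 genes, and the scaffold genes Shank1 and Shank2 were at 13% and 69.9%, while Rims1, a gene of the presynaptic release site, had 10.7%. Dentate granule neuron genes had 65.3% over 117 CpGs of 10 genes, with the desmosome gene Dsp at 92.8%, Pdzd2 at 64.9% and C1ql2 at 3.04%. Astrocyte and oligodendrocyte genes had 52.7% over 117 CpGs of 12 genes, with the transcription factor genes Olig2 and Sox9 at 3.38% and 3.16% and the proteoglycan gene Cspg4 at 77.2%. Microglia and vascular genes had 70.1% over 108 CpGs of 17 genes, with Vwf at 91.1%, Tmem119 at 89.5% and Pdgfrb at 56.5%. The genes of the methylation machinery had 69.7% over 55 CpGs of 7 genes, with Tet2 at 94.5%, Tet3 at 62.9% and the reader gene Mbd2 at 25.4%.

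**Figure D3:**
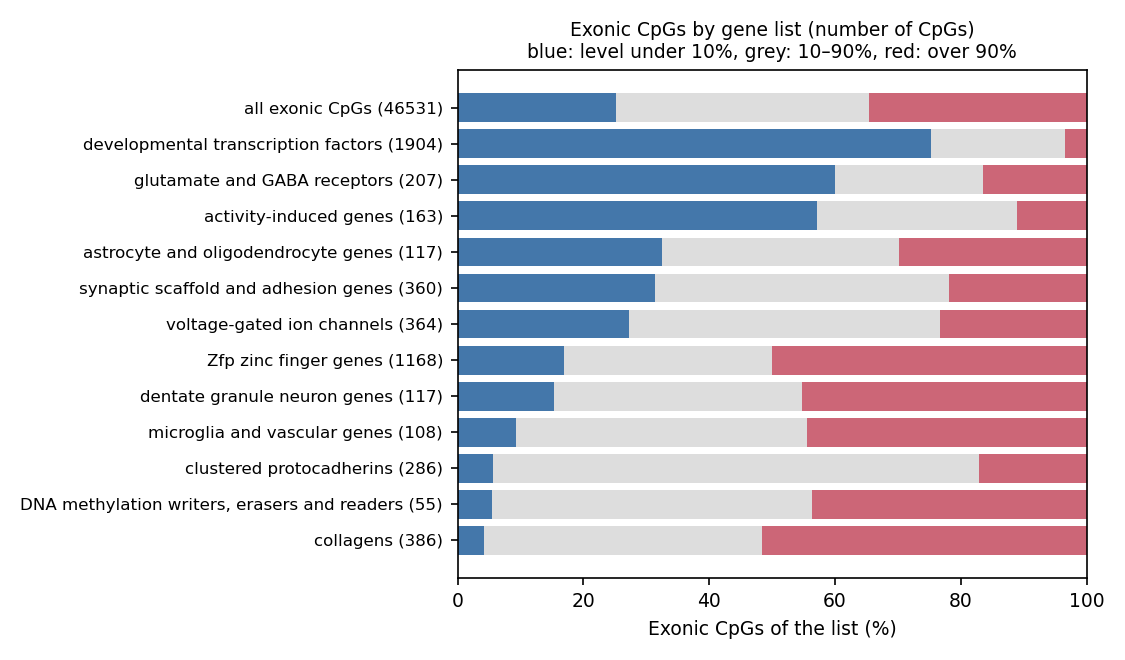
Share of exonic CpGs (x axis, %) with a level under 10% (blue), from 10 to 90% (grey) and over 90% (red), for each gene list with its number of CpGs. Developmental transcription factors have 75.3% of their CpGs under 10%, and collagens have 51.6% over 90%.

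Whether age and ENR moved the exonic level was asked first for each mouse as a whole. Over the 382 CpGs measured in every mouse, young STD mice ranged from 55.4 to 59.9% (median 56.4%), aged STD mice from 51 to 60.6% (median 56.5%), and aged ENR mice from 54.9 to 57.2% (median 56.4%). The groups overlapped. Their means were 56.9 ± 1.44%, 56.4 ± 2.63% and 56.3 ± 0.687% (SD, n = 8 each). Exact two-sided permutation tests gave p = 0.69 for aged STD against young STD (difference −0.503 points), p = 0.954 for aged ENR against aged STD (−0.042 points) and p = 0.386 for aged ENR against young STD (−0.545 points), and all 3 adjusted values were 0.954. Without aged STD replicate 5 the aged STD minus young STD difference was 0.261 points and the aged ENR minus aged STD difference was −0.806 points (exact permutation p = 0.717 and p = 0.239). The aged ENR minus young STD difference was smaller without young STD replicate 8, the highest young mouse at 59.9%.

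Over all 46531 exonic CpGs, with each mouse given as its mean deviation from the CpG levels, the mice lay closer together. Young STD mice ranged from 56.2 to 58.9% (median 56.8%), aged STD mice from 53 to 57.6% (median 56.6%), and aged ENR mice from 55.3 to 56.5% (median 55.9%). Aged ENR mice were at 55.9 ± 0.359% and young STD mice at 57 ± 0.85% (SD, n = 8 each), a difference of −1.13 points (exact permutation p = 0.000777, adjusted p = 0.00233). Aged STD mice were at 56.3 ± 1.4% (SD, n = 8), and the exact permutation tests gave p = 0.277 against young STD and p = 0.514 against aged ENR mice. Without aged STD replicate 5 they were at 56.8 ± 0.477% (SD, n = 7), the aged ENR minus aged STD difference was −0.875 points (exact permutation p = 0.0014, adjusted p = 0.0021), and the difference from young STD mice was −0.255 points (exact permutation p = 0.552). Leaving this mouse out was chosen after the data had been seen. The intronic means had the same order of groups, at 61.7 ± 1.05%, 60.6 ± 2.19% and 60.1 ± 0.58% (SD, n = 8 each). The gap between exonic and intronic levels was −4.7 ± 0.336, −4.28 ± 0.821 and −4.2 ± 0.322 points (SD, n = 8 each, in the order young STD, aged STD, aged ENR), and it differed between aged ENR and young STD mice by 0.497 points (exact permutation p = 0.011, adjusted p = 0.0331). The aged STD minus young STD difference of this gap was 0.418 points (exact permutation p = 0.203) and the aged ENR minus aged STD difference 0.0788 points (exact permutation p = 0.842). Without aged STD replicate 5 the aged STD gap was −4.54 ± 0.388 points (SD, n = 7), and these differences were 0.157 points (exact permutation p = 0.409) and 0.34 points (exact permutation p = 0.0875, adjusted p = 0.131). With the CpGs shared by all mice the gap differed by 0.881 points (exact permutation p = 0.118, adjusted p = 0.354).

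**Figure D4:**
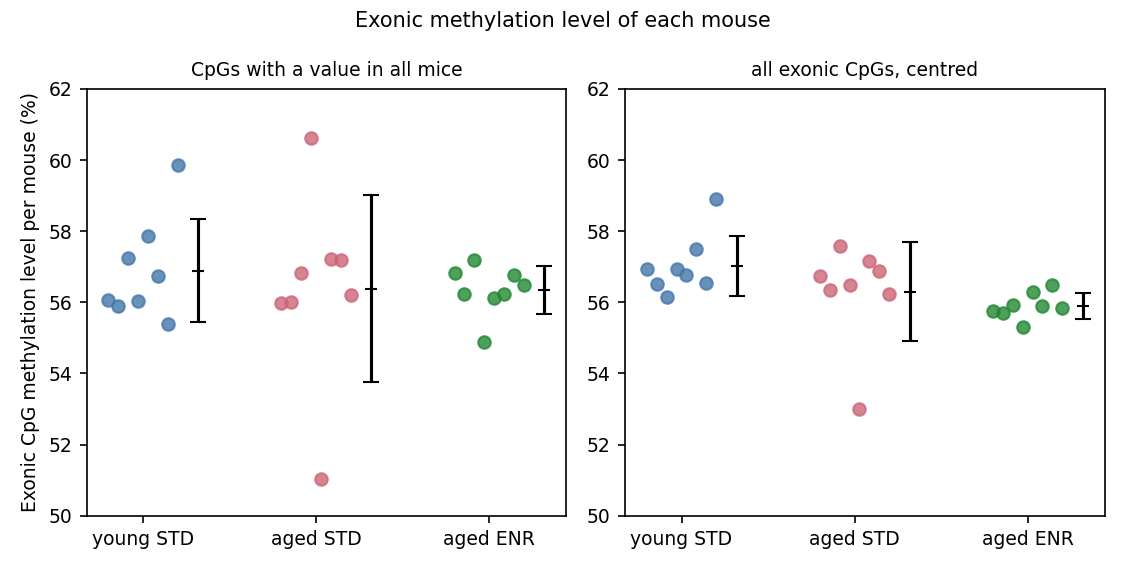
Exonic methylation level of each mouse (y axis, %, from 50 to 62) by group, over the 382 CpGs measured in every mouse (left) and over all 46531 exonic CpGs as centred values (right), with the mean and SD in black. The low point in aged STD is replicate 5, at 51% on the left and 53% on the right.

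Group means of single exonic CpGs lay far apart at a larger share of CpGs than in the whole table. Group means were over 25 points apart at 5935 exonic CpGs (12.8%) between aged STD and young STD mice, against 9.16% of all CpGs of the table. Of these, 2638 were higher in aged STD mice (5.67%, against 4.15% of all CpGs) and 3297 were lower (7.09%, against 5.01%). Between aged ENR and aged STD mice the count was 5467 (11.7%, against 8.33%), with 2577 higher in aged ENR (5.54%, against 3.82%) and 2890 lower (6.21%, against 4.51%). Between aged ENR and young STD mice it was 5621 (12.1%, against 8.43%), with 2276 higher (4.89%, against 3.43%) and 3345 lower (7.19%, against 4.99%). The promoter class, with few CpGs far from 0, had 3.99% past this size in the comparison of aged STD with young STD, and intronic and intergenic CpGs had 15.1 and 12.5%. The size criterion has no test, and the number of mice mattered. Among the 12597 exonic CpGs with at least 5 mice in each group, 882 (7%), 797 (6.33%) and 830 (6.59%) were past it in the 3 comparisons in the same order, against 5.15, 4.72 and 4.82% of all CpGs with as many mice. Within exons, 8.06% of the CpGs in CpG-rich windows and 14.8% of the others were past it between aged STD and young STD mice. Each group of mice enters 2 of the 3 comparisons, which are therefore not independent.

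With limma, 5 exonic CpGs (0.0107%) passed an adjusted p under 0.05 and 25 points between aged STD and young STD mice, against 0.00475% of all CpGs of the table. Between aged ENR and aged STD mice 3 passed (0.00645%, against 0.00432% of all CpGs), and between aged ENR and young STD mice 6 passed (0.0129%, against 0.00504% of all CpGs). These counts moved with single mice, to 7 to 27, 3 to 26 and 7 to 27 CpGs when 1 mouse was left out, highest without aged STD replicate 6, aged ENR replicate 8 and aged ENR replicate 8. At an unadjusted limma p under 0.05 there were 1307, 1121 and 1301 exonic CpGs (2.81, 2.41 and 2.8%), against 2.18, 1.85 and 2.13% of autosomal CpGs. The 14 calls came from 8 CpGs, each with a value in 3 mice of at least 1 group. None of the exonic CpGs with at least 5 mice in each group passed limma when only those were tested. An unadjusted limma p under 0.05 was seen at 399, 336 and 392 of them (3.17, 2.67 and 3.11%), against 2.59, 2.15 and 2.54% of all CpGs with as many mice.

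The called CpGs other than that of Prob1, whose sequence is not shown, are printed on the strand on which they were measured, with the CpG in capitals and the flanking bases of GRCm38. The Serpinf1 sequence is chr11:75409858-75409887 (plus strand), the Iffo2 sequence chr4:139619572-139619601 (minus), the Cbx6 sequence chr15:79829006-79829035 (plus), the Herc2 sequence chr7:56194347-56194408 (minus, beginning in the flanking intron), the C4b sequence chr17:34739767-34739828 (minus), the Platr31 sequence chr6:127108423-127108484 (minus) and the Gm14371 sequence chr2:173794064-173794125 (plus).
Serpinf1: ctcctggggcaggaCGttcctcttcctcat
Iffo2: gccccagctgtgtgCGgacgttcagtgagg
Cbx6: ctcaagacttcccgCGgtccctagacaccc
Herc2: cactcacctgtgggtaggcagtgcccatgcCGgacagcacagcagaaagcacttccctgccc
C4b: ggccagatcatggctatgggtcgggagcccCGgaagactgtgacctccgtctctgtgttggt
Platr31: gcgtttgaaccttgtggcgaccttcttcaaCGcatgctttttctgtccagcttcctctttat
Gm14371: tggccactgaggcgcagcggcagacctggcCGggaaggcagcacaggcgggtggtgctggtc

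At 3 of these CpGs both aged groups passed limma against the young mice. In the 3′ untranslated part of the last exon of Serpinf1, which encodes a secreted factor that inhibits vessel growth (chr11:75409872), methylation was 0% in all 3 mice with a value among the young, and it was 100% in all 3 mice of aged STD and 100% in all 4 mice of aged ENR. The aged STD minus young STD difference was 100 ± 0.0427 points (SE; limma adjusted p = 2.74e-17), and the aged ENR minus young STD difference was 100 ± 0.04 points (SE; limma adjusted p = 8.4e-18). The mice of a group did not differ at this CpG, so the SE rests on the spread that limma borrows from other CpGs. The neighbours 28 bases to either side had group means of 0, 97.1 and 75%, and of 33.3, 96.1 and 100%, and the one 22 bases away had 33.3, 72.1 and 100% (in the order young STD, aged STD, aged ENR, which also holds for the neighbours given next). In the last exon of Iffo2, an intermediate filament family gene (chr4:139619587, 3′ untranslated), the young STD mice had 0, 20 and 21.4% and all 3 aged STD and all 5 aged ENR mice with a value had 100%. Its neighbours had group means of 66.7, 66.7 and 51.4% at 4 bases, 61.9, 100 and 76% at 17 bases, and 45, 75 and 31.6% at 40 bases. The differences were 86.2 ± 4.79 points (SE; limma adjusted p = 0.00399) for aged STD and 86.2 ± 4.28 points (SE; limma adjusted p = 0.00146) for aged ENR against young STD. In Cbx6, a Polycomb gene (chr15:79829020, exon of a non-coding transcript), young STD mice had 91.7, 100 and 100%, aged STD mice 0% in all 3 mice and aged ENR mice 0% in all 4 mice. Here the differences were −97.2 ± 2.05 points (SE; limma adjusted p = 4.89e-05) and −97.2 ± 1.92 points (SE; limma adjusted p = 1.12e-05). Of its neighbours on the same strand, the one 38 bases away had group means of 100, 0 and 75%, the one 46 bases away 66.7, 0 and 75%, and the one 2 bases away 66.7, 33.3 and 25%. The aged ENR mice thus went with the aged STD mice at the called CpG but not at the neighbours 38 and 46 bases away.

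At Herc2 and C4b the aged STD mice stood apart from both other groups. In exon 69 of 93 of Herc2, which encodes a ubiquitin ligase (chr7:56194378, coding), aged STD mice had 0, 0 and 7.69%, whereas young STD mice had 100% in all 3 mice and aged ENR mice 100% in all 3 mice. The aged STD minus young STD difference was −97.4 ± 2.04 points (SE; limma adjusted p = 0.000327) and the aged ENR minus aged STD difference was 97.4 ± 2.04 points (SE; limma adjusted p = 0.000182). Aged STD replicate 5 was among the 3 aged STD mice, and without it the adjusted limma p was 0.00192 and 0.00153. In exon 13 of 41 of C4b, which encodes complement component 4B (chr17:34739798, coding), aged STD mice had 0, 33.3 and 52.9%, while young STD mice had 100% in all 5 mice and aged ENR mice 100% in all 7 mice. These differences were −71.2 ± 7.87 points (SE; limma adjusted p = 0.0291) and 71.2 ± 7.44 points (SE; limma adjusted p = 0.0157). C4b has a close copy in the genome, and reads of the copies may not be told apart. The cytosine 17 bases away on the same strand had group means of 74.7, 63.3 and 100%, while its partner on the opposite strand had 93.1, 90.7 and 94.8%.

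The remaining calls were made in comparisons of aged ENR mice. In the single exon of Prob1 (chr18:35653397, coding), aged ENR mice had 38.5, 44.7 and 58.3%, and all 4 young STD and all 4 aged STD mice with a value had 0%. Both differences were 47.2 ± 3.8 points (SE; limma adjusted p = 0.0306). Without aged STD replicate 5 both calls were lost (limma adjusted p = 0.0745 and limma adjusted p = 0.0959). The 7 other CpGs within 50 bases had group means of 0 to 38.2% in young STD, 0 to 8.96% in aged STD and 0 to 12.5% in aged ENR mice. At the CpG 18 bases away the aged ENR mice were lowest, with 38.2, 8.96 and 0%. In the long non-coding gene Platr31 (chr6:127108454) aged ENR mice had 0% in all 4 mice, aged STD mice 0, 8 and 33.3% and young STD mice 100% in all 3 mice. Neither aged group overlapped the young mice here, and limma called the difference of aged ENR mice and not that of aged STD mice. In the pseudogene Gm14371 (chr2:173794094) aged ENR mice had 0, 7.14 and 36.4%, aged STD mice 87.1, 100 and 100%, and young STD mice 100% in all 5 mice. The aged ENR minus young STD differences in Platr31 and Gm14371 were −100 ± 6.94 points (SE; limma adjusted p = 0.0306) and −85.5 ± 7.39 points (SE; limma adjusted p = 0.0435). The neighbours of the Platr31 CpG had group means of 100, 31.4 and 62.1% at 13 bases and of 66.7, 12.1 and 62.1% at 38 bases. The neighbours of the Gm14371 CpG within 50 bases were at 95.6 to 100% in every group. These 3 CpGs lost their call when single mice were left out. For Prob1 these were also aged STD replicate 2 and aged ENR replicate 7 in the comparison with aged STD mice, and young STD replicates 2 and 7 and aged ENR replicate 7 in the comparison with young STD mice (limma adjusted p = 0.0536 to 0.0754). For Platr31 they were young STD replicates 4, 6 and 7 and aged ENR replicates 3, 4 and 5 (limma adjusted p = 0.0663 to 0.0841), and for Gm14371 young STD replicates 1, 2, 4, 6 and 8 and aged ENR replicates 4 and 5 (limma adjusted p = 0.0539 to 0.114). The calls of Serpinf1, Iffo2, Cbx6, Herc2 and C4b held in 16 of 16 fits without 1 mouse. Many of these fits left out a mouse with no value at the CpG, which leaves its difference unchanged. Among the fits that left out a mouse with a value, the highest limma adjusted p was 0.0452. It belonged to C4b, aged STD against young STD, without aged STD replicate 7. With percentages on a log2 ratio scale, the calls of Serpinf1, Cbx6, C4b and Prob1 remained, and those of Iffo2, Herc2, Platr31 and Gm14371 were lost (limma adjusted p = 0.0543 to 0.28).

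**Figure D5:**
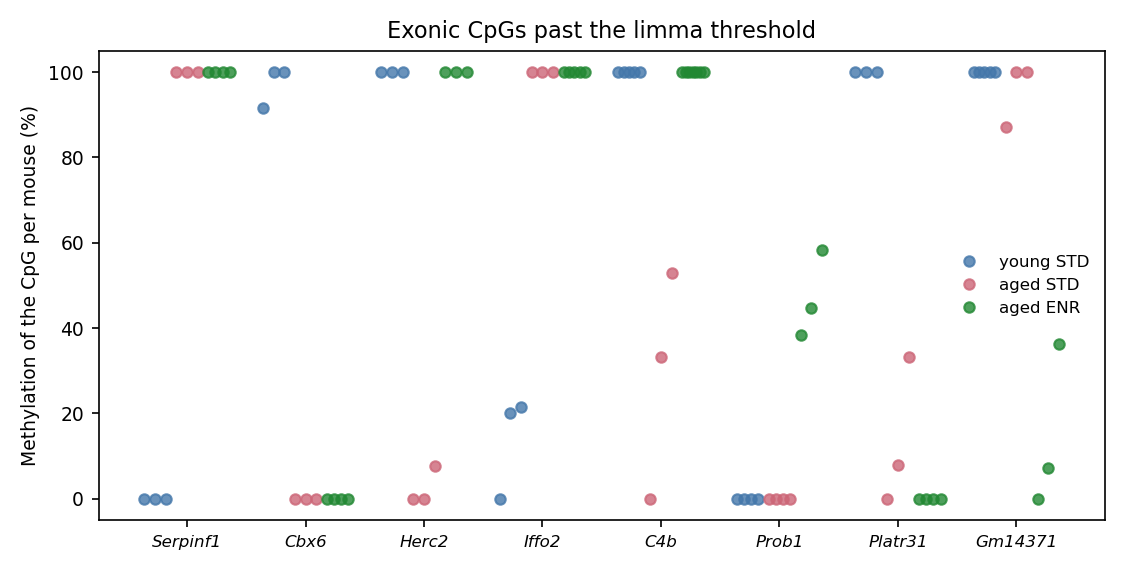
Methylation of each mouse with a value (y axis, %) at the 8 exonic CpGs past the limma threshold in at least 1 comparison, by gene and group. With 3 to 7 mice per group, at Serpinf1 every mouse is at 0 or 100%, and at each of the other CpGs at least 1 mouse lies between.

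Neighbouring CpGs were then joined. Runs of at least 5 exonic cytosines at most 100 bp apart gave 3018 exonic clusters with a median of 7 cytosines and 109 bp, of 40698 clusters of all classes. A cluster's value in a mouse was its level plus the mean deviation of the mouse, so that it can pass 0 or 100%. The SD between mice of a group had a median of 8.63 points. With limma, 1 exonic cluster (0.0331%) had an adjusted p under 0.05 between aged STD and young STD mice. It was the only such cluster of any class (0.00246% of all clusters). Between aged ENR and aged STD there were 0 (0% of all clusters), and between aged ENR and young STD 0 (0% of all clusters). An unadjusted limma p under 0.05 was seen at 162 (5.37%), 139 (4.61%) and 163 (5.4%) exonic clusters, against 4.97, 4.13 and 4.57% of all clusters.

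The cluster that passed lay in exon 2 of 14 of Snx4, which encodes a sorting nexin (chr16:33264324-33264379, 6 cytosines). Its 3 young STD mice were at 83.3, 83.3 and 85.7%, its 4 aged STD mice between 98.9 and 100%, and its 3 aged ENR mice between 97.3 and 100%. The aged STD minus young STD difference was 15.6 ± 1.11 points (SE; limma adjusted p = 0.0263). It lost the call without young STD replicate 5, aged STD replicate 3 or aged STD replicate 7. It is named because it passed, outside the rule for clusters, which asks for at least 5 mice in each group.

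Among the clusters with at least 5 mice in each group, none passed the adjusted threshold, and the 8 with the smallest p in each comparison are given as values. For aged STD against young STD the first was in the 3′ untranslated part of Dio2, which encodes the enzyme that activates thyroid hormone (chr12:90725438-90725534, 8 cytosines). Young STD mice lay at 48.2 to 74.1% (median 55.2%, n = 7), aged STD mice at 67.7 to 92.9% (median 81.8%, n = 8) and aged ENR mice at 55 to 89.3% (median 73.2%, n = 7). The aged STD and young STD groups overlapped only slightly, and the difference was 23.3 ± 5.27 points (SE; limma adjusted p = 0.432). Of the others, 3 were coding clusters of low level. In Psmc2, a proteasome gene, the group means were 4.76 ± 2.41% (n = 8), −0.007 ± 0.373% (n = 8), 2.89 ± 3.32% (n = 8), in Tmem115 they were 3.67 ± 3.46% (n = 7), −0.495 ± 0.672% (n = 7), −0.204 ± 1.1% (n = 8), and in Adra2a, which encodes an adrenergic receptor, 6.87 ± 4.58% (n = 7), 0.576 ± 1.33% (n = 6), 1.82 ± 2.51% (n = 8) (SD each, in the order young STD, aged STD, aged ENR). The aged STD minus young STD differences in these clusters were −4.77, −4.16 and −6.29 points (limma adjusted p = 0.59, adjusted p = 0.764 and adjusted p = 0.783). In nearly fully methylated coding exons of D130043K22Rik and Zbtb7c the young STD means were 99.5 and 99.5%, the aged STD means 91.8 and 91.2%, and the aged ENR means 99.1 and 98.1% (limma adjusted p = 0.762 and adjusted p = 0.764 for aged STD against young STD). The other clusters of this set were in the non-coding gene Gm45708, with a difference of −37.3 ± 9.34 points (SE; limma adjusted p = 0.693), and in exon 14 of 24 of Usp25, a deubiquitinase gene, with a difference of −19.2 ± 5.69 points (SE; limma adjusted p = 0.801). In Usp25 young STD mice lay at 7.14 to 49.1% (median 31.5%, n = 8) and aged STD mice at 0 to 33% (median 10.4%, n = 8).

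For aged ENR against aged STD, D130043K22Rik and Zbtb7c were again among the 8, which use the same aged STD mice. The others were Hsf5 (a heat shock factor gene, 3′ untranslated; aged ENR minus aged STD difference 35 points), Lamb1 (a laminin gene; −13.6 points), C4b (22.6 points), Tnxb (a tenascin gene; 10.6 points), Sigirr (an inhibitory receptor gene; −21.4 points) and Cux2 (a neuronal homeobox gene; 5.98 points). The limma adjusted p was 0.959 for all 8. The Cux2 cluster was the longest of them, with 34 cytosines in exon 18 of 23, and its aged STD mice lay at 79.3 to 96.5% (median 92.1%, n = 8) and its aged ENR mice at 94.1 to 100.9% (median 96.6%, n = 8). The C4b cluster held the called CpG described above.

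For aged ENR against young STD the first cluster was in exon 11 of 15 of Srrm3, which encodes a regulator of splicing in neurons (chr5:135857054-135857100, 10 cytosines). Young STD mice were at −4.32 to 6.48% (median 2.09%, n = 5), aged STD mice at 6.48 to 33.3% (median 25.8%, n = 6) and aged ENR mice at 21.8 to 54.7% (median 29%, n = 5). The aged ENR minus young STD difference was 31 ± 6.26 points (SE; limma adjusted p = 0.586). The young STD mice did not overlap with the aged ENR mice, and the highest young STD value met the lowest aged STD value of 6.48%. Its sequence and that of the Usp25 cluster (chr16:77077043-77077145) are shown on the plus strand of GRCm38, the coding strand of both, with the measured CpGs in capitals.
Srrm3: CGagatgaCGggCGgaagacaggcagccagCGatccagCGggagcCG
Usp25: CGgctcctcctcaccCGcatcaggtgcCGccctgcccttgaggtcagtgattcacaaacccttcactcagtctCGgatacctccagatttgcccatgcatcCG
Further members were Epcam, an adhesion gene, with 84.1 ± 23.1% in young STD and 33.2 ± 29.3% in aged ENR mice, and Kdm6b, which encodes a histone demethylase, with 83.8 ± 19% and 40.9 ± 26% (SD). The spread within each group was large, and both groups overlapped in these genes. Bcl2l13 and Tmprss12 had differences of −30.2 and −24.6 points, Rrm2 (a ribonucleotide reductase gene) and Acacb (an acetyl-CoA carboxylase gene) had 9.78 and 10.7 points, and Tmem115 had −3.87 points. The limma adjusted p was 0.939 for these 7 clusters.

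Genes with a large share of exonic CpGs past 25 points differed in level, from Snx20 at 5.73% to Gm11620 at 85.4%. Among the 160 genes with at least 30 exonic CpGs, Zfp316 had the largest share between aged STD and young STD mice, with 45.7% of 35 CpGs, but 8 were higher and 8 lower, and its gene means were 46.2 ± 9.86% (SD, n = 7) and 49.2 ± 8.71% (SD, n = 7). Snx20 followed, with 12 of 33 CpGs lower and 1 higher, and 1 mouse each among young STD and aged ENR mice was above 50%. Young STD mice had a median of 4.63% with the highest at 51.9% (n = 6), aged STD mice a median of 0.869% with the highest at 5.7% (n = 7), and aged ENR mice a median of 0.224% with the highest at 51.3% (n = 8). In Npas3, a neuronal transcription factor gene, 10 of 35 CpGs were higher and 3 lower, and in Hic1, a transcriptional repressor gene, 13 of 50 were higher and 3 lower. Their aged STD means were 36.4 ± 17.6% (SD, n = 8) and 33 ± 10.1% (SD, n = 8), against 26 ± 9.92% (SD, n = 8) and 23.7 ± 4.43% (SD, n = 8) in young STD mice. Aged ENR mice were at 22.1 ± 13.4% (SD, n = 8) in Npas3 and 23.9 ± 10.7% (SD, n = 8) in Hic1. Camta1 completed this set, with 6 CpGs higher and 6 lower of 37.

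Between aged ENR and aged STD mice the leading genes were Zfp316, Cyp26b1 (encoding an enzyme that clears retinoic acid; 11 of 34 CpGs higher and 4 lower), Pdzd2 (5 higher and 9 lower of 38), Camta1 (7 higher and 5 lower of 37) and Shank2 (4 higher and 5 lower of 30). Between aged ENR and young STD mice they were Snx20 (13 of 33 lower), Gm11620 (3 higher and 10 lower of 40), Crb2 (a cell polarity gene; 1 higher and 20 lower of 68), Speg (8 higher and 6 lower of 47) and Cyp26b1 (5 higher and 5 lower of 34). In Crb2 young STD mice had 44.9 ± 13.5% (SD, n = 8), aged STD mice 25.3 ± 24.5% (SD, n = 8) and aged ENR mice 37.9 ± 22% (SD, n = 8), so the groups overlapped. Their medians were 46.7, 30.3 and 33.5%. The lowest aged STD mouse was at a centred value of −29.6%, and the highest aged ENR mouse at 88.5%. CpGs of a gene share reads and mice, and these counts have no test.

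None of the exonic CpGs of the 12 gene lists was called by limma in any comparison, and their shares at an unadjusted limma p under 0.05 lay on both sides of the 2.81, 2.41 and 2.8% of all exonic CpGs. Between aged STD and young STD mice, clustered protocadherins had 20 of 286 CpGs (6.99%), voltage-gated ion channels 19 of 364 (5.22%), collagens 16 of 386 (4.15%), developmental transcription factors 39 of 1904 (2.05%) and Zfp zinc finger genes 20 of 1168 (1.71%), and over the 12 lists the share ran from 0.855 to 6.99%. It ran from 0 to 4.12% between aged ENR and aged STD mice and from 0 to 3.57% between aged ENR and young STD mice. Past 25 points between aged STD and young STD mice were 6.51% of the CpGs of developmental transcription factors (58 higher and 66 lower), 6.76% in glutamate and GABA receptors (6 and 8) and 20.3% in clustered protocadherins (24 and 34), against 12.8% of all exonic CpGs. Activity-induced genes had 18 CpGs higher and 2 lower of 163 (12.3%), a share near that of all exonic CpGs. Nr4a2 had 7 higher and 1 lower of these, and Nr4a1 3 higher and 0 lower. At an unadjusted limma p under 0.05 this list had 2 CpGs (1.23%), below the 2.81% of all exonic CpGs. Its level was 24.1 ± 3.16%, 28.8 ± 3.03% and 28.5 ± 4.42% (SD, n = 8 each, in the order young STD, aged STD, aged ENR). Collagens had 36 higher and 16 lower of 386 (13.5%), Zfp zinc finger genes 62 and 62 of 1168 (10.6%), and synaptic scaffold and adhesion genes 30 and 30 of 360 (16.7%). Between aged ENR and aged STD mice, where 11.7% of all exonic CpGs were past 25 points, the lists ranged from 5.45% in the genes of the methylation machinery (0 higher and 3 lower) to 18.3% in synaptic scaffold and adhesion genes (26 higher and 40 lower). Voltage-gated ion channels had 18.1% (24 higher and 42 lower), clustered protocadherins 15.7% (25 and 20), Zfp zinc finger genes 10.2% (59 and 60) and collagens 9.84% (20 and 18). The median difference was 0 points in each list and comparison, as over all exonic CpGs, except in the genes of the methylation machinery, where it was 0.673, −2.22 and 0 points over 55 CpGs.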

How the data were processed

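RRBS was done on dentate gyrus DNA of 24 mice, which are separate animals. The authors deposited the methylation of each CpG and mouse in percent, as methylated reads over all reads, with strands kept apart. Per the labels, reads were trimmed with Trim Galore 0.4.0 and cutadapt 1.8.1, aligned to mm10 with Bismark 0.16.1 and tabulated with methylKit 1.5.2. The study's methods give other versions of Trim Galore and Bismark. CpGs needed at least 10 reads, a coverage up to the 99.9th percentile and 3 mice per group. No read counts were used here, so the depth of a value is unknown. The size of a difference at a CpG with few reads is coarse.

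CpGs were placed on GENCODE M21. The members and lists were chosen with earlier results of these data known. Group means were compared with limma 3.58.1 (R 4.3.3) over the whole table of CpGs, or over all clusters, with Benjamini-Hochberg adjustment. Calls on CpGs needed a limma adjusted p under 0.05 together with group means over 25 points apart. The level of each mouse was compared between groups by exact two-sided permutation (12870 relabelings, 3 comparisons adjusted together) and between classes by sign flips over mice. Centred values are the level of a CpG set plus the mean deviation of a mouse from its CpG levels. Named were the called CpGs (at most 10 per comparison), the 8 clusters with the smallest p and at least 5 mice in each group, the genes with the most CpGs, the lowest and highest levels or the largest shares past 25 points, and 3 genes per list. Alternatives changed the class limits, minimum mice, scale, cluster rules and replicate block, and left out each mouse. Scripts were tested on simulated data (Python 3.11.15, numpy 2.4.6, pandas 2.3.3, scipy 1.17.1, pysam 0.24.0, matplotlib 3.10.9).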

Additional observations from a re-analysis of the deposited data

Results flagged for a closer look

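A mouse was set apart where its gap to the nearest mouse of its group took up more of the group's range than Dixon's 95% critical value allows. This held for 7 of 76 tested groups of values, and chance sets apart about 1 in 20. Aged STD replicate 5 had a centred exonic level of 53%, against a group median of 56.6%, and a centred exonic minus intronic gap of −2.45 points, against −4.43 points. Aged ENR replicate 4 had an exonic level of 54.9% over the CpGs measured in every mouse, against a median of 56.4%.

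The other values concerned single clusters. Aged ENR replicate 1 was at 54.7% in the Srrm3 cluster, where the group median was 29%, young STD replicate 2 at 96.2% in the D130043K22Rik cluster (median 100%), aged ENR replicate 7 at 2.14% in the Tmem115 cluster (median −0.506%), and aged STD replicate 6 at 98.9% in the Snx4 cluster (median 100%). Whether cell makeup, dissection or read depth took part in these values was not tested.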

How the results depend on the processing

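Of the values recomputed under the alternatives, 389 stayed the same, 68 counts moved, 13 values reversed and 3 passed a threshold they had missed. The same means that a tested difference kept its direction and side of the threshold, and that a count stayed of similar size. The aged ENR minus aged STD level difference was 0.797 points with protein-coding transcripts only and 0.252 points beyond 2000 bp, and −0.806 to 0.562 points without 1 mouse (lowest without aged STD replicate 5, highest without aged STD replicate 4). The aged STD minus young STD difference was −1.11 to 0.261 points without 1 mouse (the same 2 mice), and the aged ENR minus aged STD difference of the exonic minus intronic gap −0.0471 to 0.728 points. With all exonic CpGs centred, the aged ENR minus young STD difference of −1.13 points, the aged ENR minus aged STD difference of −0.875 points without aged STD replicate 5, and the gap difference of 0.497 points passed the threshold. The exon edge difference was −7.08 points with CpGs of at least 20 mice, the constitutive minus alternative difference −3.17 points outside CpG-rich windows, and the exonic minus intronic difference 0.863 points with equally weighted bins and 6.26 points without the CpG-rich bin beyond 50 kb. With at least 5 mice in each group, which leaves fewer CpGs, 882, 797 and 830 of 12597 exonic CpGs (7, 6.33 and 6.59%, against 5.15, 4.72 and 4.82% of all CpGs with as many mice) were over 25 points apart for aged STD against young STD, aged ENR against aged STD and aged ENR against young STD, and limma called 0, 0 and 0. On the log2 ratio scale limma called 6, 7 and 6 CpGs, of which 3, 2 and 3 were among the 5, 3 and 6 calls on the percent scale. Without 1 mouse limma called 7 to 27, 3 to 26 and 7 to 27 CpGs (highest without aged STD replicate 6, aged ENR replicate 8 and aged ENR replicate 8), and 0 to 4, 0 to 1 and 0 to 2 clusters. At least 10 cytosines per cluster gave 0 clusters for aged STD against young STD, and gaps of at most 50 bp gave 1 for aged ENR against young STD. The replicate block gave 50, 39 and 40 CpGs, of which 1, 0 and 1 were among the calls without it, and 0 clusters for aged STD against young STD. Mice that share a number did not deviate together (mean correlation −0.00392 over 24 pairs, from −0.0382 to 0.0217), so the numbers do not pair the mice, and the block changed no call on the level of a mouse. The cause of these shifts was not tested. The read number behind each value is unknown, and calls rest on CpGs with few mice.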
